A study of Mus musculus with 6 samples.

Results

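The genes described here are those that encode the chains of collagens and laminins, protein families that build most of the fibrils and sheets of the extracellular matrix. Members were found by name, as every gene symbol made of Col, a number, the letter a and a number, or of Lama, Lamb or Lamc and a number. The choice of these families was made with earlier results of these data known. This found 55 genes of 17971 in the table, 44 of them collagens and 11 laminins, and 50 had enough counts to be tested. RNA-seq was done on dorsal root ganglia, the clusters of sensory neurons and glia beside the spinal cord, of male mouse embryos at E13.5. Genotype in the 3 cKO libraries was Wnt1-cre+/-;Ybx1fl/fl and that in the 3 Ctrl libraries, from littermates, was Ybx1fl/fl, so all embryos carried the floxed alleles and Cre was present in cKO alone. What the Cre transgene does by itself and what the deletion does cannot be told apart.

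Collagen chains wind around each other into stiff helices, which assemble into fibrils, nets or filaments depending on the type. Laminins are cross-shaped proteins made of an alpha, a beta and a gamma chain, and with type IV collagen they form the basement membrane, the sheet that surrounds blood vessels, peripheral nerve glia and the ganglion itself. In a peripheral ganglion, fibrillar collagens are made mainly by connective tissue cells, while endothelial cells, pericytes and Schwann cells make basement membranes. Wnt1-driven Cre acts in the neural crest lineage, from which the neurons and glia of these ganglia come, so cells of another origin, such as the endothelium, would keep Ybx1. The product of Ybx1 belongs to the cold-shock domain proteins and binds both RNA and DNA, and was first described through its binding to the Y-box, an inverted CCAAT sequence in promoters.

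Depth was between 16464264 and 17446385 estimated counts per library. Levels are given as CPM (counts scaled to a common library total, with TMM factors) when libraries are compared for a gene, and as TPM (the authors' values corrected for transcript length and library total) when genes are compared. Ybx1 itself had 137, 122 and 108 CPM in cKO and 927, 809 and 817 CPM in Ctrl, so each library went with its label. On the first principal component (33.6% of variance) cKO 1 lay at -20.1, Ctrl 1 at -8.54 and the other 4 libraries at 1.74 to 12.1. Each cKO library lay below the Ctrl library of its number on it. Same-numbered libraries of cKO and Ctrl deviated together from their group means, so a fit with the replicate number as a block is given beside the fit without it where the calls differ. Tests are edgeR's quasi-likelihood test over all 14338 genes tested, two-sided, with Benjamini-Hochberg adjusted p and a threshold of 0.05. Log2 fold changes are cKO over Ctrl.

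A few collagen genes were called higher in cKO, and only when libraries were paired by number or by DESeq2, or when the libraries numbered 1 were left out. With edgeR on all 6 libraries, no member was called without the replicate number, where 0.481% of all genes tested were called, and with the replicate number as a block 5 collagen genes were called higher in cKO and no member was called lower. In that blocked fit 5.33% of all genes were called, 1.76% as higher and 3.56% as lower. The 5 were Col18a1, Col4a2, Col2a1, Col16a1 and Col11a2, with log2 fold changes of 0.20 to 0.43. At an unadjusted p under 0.05 without the block, 6 members were higher and none lower (4.62% of all genes were higher at this p); DESeq2 called Col18a1 alone and limma-voom none. Without both libraries numbered 1, 4 members were called without the block (Col18a1, Col4a2, Col2a1 and Col11a2) and 6 with it. The share of all genes called in these smaller fits is not given here, so these counts have no background to set them against. The median log2 fold change was 0.04 over the 50 members tested and 0.00 over all genes tested, and the median 95% interval of a member reached 0.20 on the log2 scale to either side of its value.

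**Figure D1:**
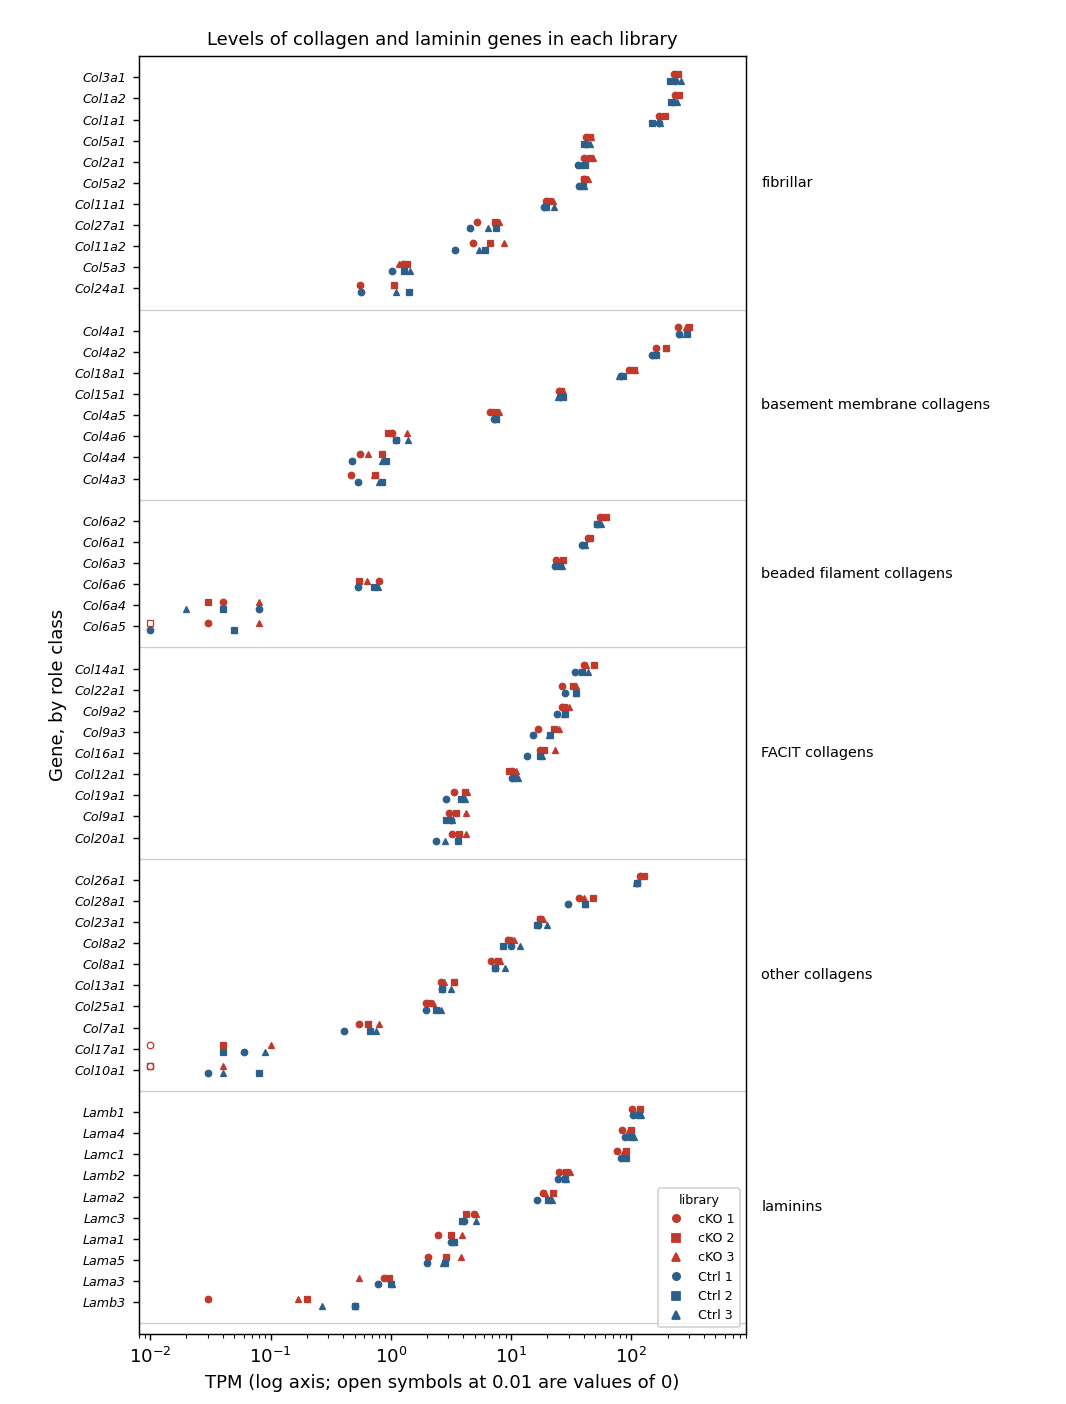
Level of the collagen and laminin genes described in TPM (log axis) in each library, grouped by role class, with cKO in red above Ctrl in blue and a symbol shape for each replicate number. Levels run from under 0.1 TPM (Col10a1, Col6a5) to mean values of 270.3 TPM (Col4a1), and the cKO and Ctrl points of a gene lie close together.

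By level, the matrix genes of these ganglia were led by type IV, type III and type I collagen chains. Averaged over the 6 libraries, Col4a1 stood at 270.3 TPM, Col3a1 at 234, Col1a2 at 232, Col1a1 at 171 and Col4a2 at 169 TPM. Col26a1 (116 TPM) and Lamb1 (112 TPM) followed. Together the 55 members summed to 2092.5, 2377 and 2331 TPM in cKO replicates 1, 2 and 3, against 2032, 2141 and 2219 TPM in Ctrl replicates 1, 2 and 3. Both groups overlap in this sum, and within each replicate number cKO was 2.97%, 11.0% and 5.04% higher. In bulk tissue, fewer cells of a type and less RNA per cell cannot be told apart.

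Summed in CPM, the collagens were higher and the laminins lower in cKO within every replicate number. Collagen counts summed to 5737, 5822 and 5707 CPM in the cKO libraries, against 5447, 5248 and 5486 CPM in the Ctrl libraries, so every cKO library lay above every Ctrl library. In TPM the collagens summed to 1777, 2007 and 1969 in cKO and 1708, 1774 and 1841 in Ctrl, where cKO replicate 1 lay below Ctrl replicate 3, so the groups separated in CPM and overlapped in TPM. Laminin counts summed to 1214, 1279 and 1246 CPM in cKO and 1227, 1283 and 1332 CPM in Ctrl, and the groups overlap. In TPM, the laminin sum of cKO differed from that of Ctrl by -2.90%, 1.01% and -4.30% in numbers 1, 2 and 3. Of 40 collagens tested 28 had a positive log2 fold change, as did 5 of 10 laminins and 51.4% of all genes. The difference between the families was not tested. Collagen genes higher in cKO within every replicate number were 11 of 40 (19.6% of all genes), and 3 were lower in every one (20.3% of all genes). Groups did not overlap for 5 of the 50 members tested, all higher in cKO (7.83% of all genes were higher without overlap, 8.77% were lower without overlap, and 16.6% did not overlap in either direction).

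**Figure D2:**
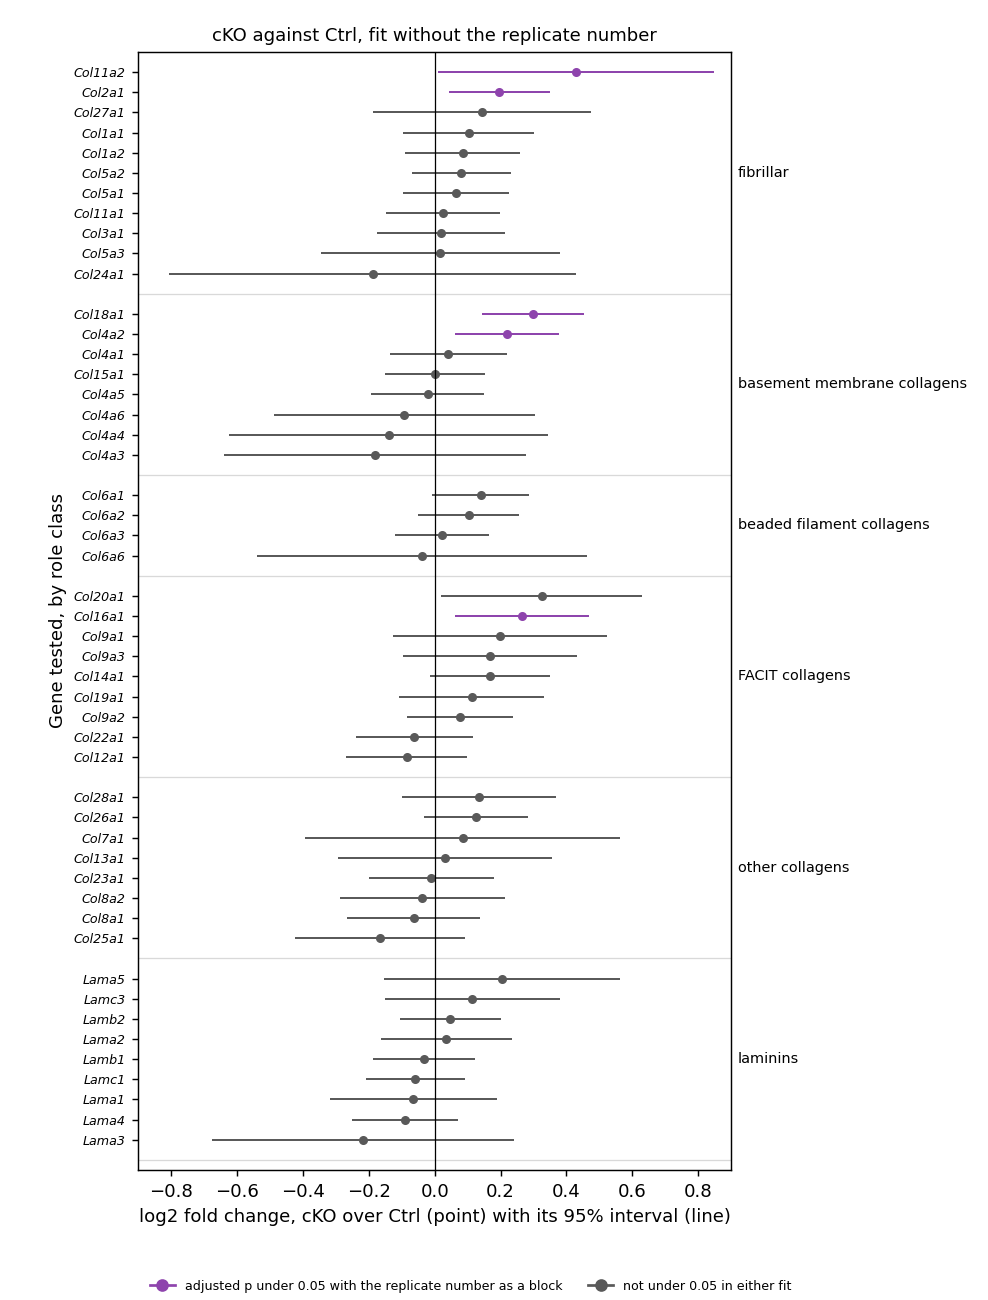
Log2 fold change of cKO over Ctrl (x axis) for the tested members described, with 95% intervals, from the fit without the replicate number, grouped by role class and sorted within it. The 5 members called with the replicate number as a block are in purple and lie at 0.20 to 0.43. Above 0 lie 10 of the 11 fibrillar collagens, 7 of the 9 FACIT collagens and 3 of the 4 beaded filament collagens. So do 4 of the 8 basement membrane collagens and 4 of the 8 other collagens, while laminins lie on both sides of 0. Of all genes tested, 51.4% were positive.

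Among the fibrillar collagens, which form the cross-striated fibrils of connective tissue, the most abundant chains had log2 fold changes of 0.02 to 0.10. On all 6 libraries they were not called with or without the block. Col3a1, the chain of type III collagen of soft tissues, had 723, 696 and 694 CPM in cKO replicates 1, 2 and 3, against 721, 611 and 754 CPM in Ctrl replicates 1, 2 and 3. The Ctrl libraries alone spanned the range of cKO, and the log2 fold change of 0.02 (95% interval -0.17 to 0.21) came with an edgeR adjusted p of 0.967. Col1a2, a chain of type I collagen, had 691, 664 and 648 CPM in cKO replicates 1, 2 and 3, against 658, 578 and 652 CPM in Ctrl replicates 1, 2 and 3. Its Ctrl replicate 2 was lowest and the other 5 libraries lay close together; the log2 fold change of 0.08 (95% interval -0.09 to 0.26) did not pass (edgeR adjusted p 0.788). Its partner chain Col1a1 had 583, 585 and 534 CPM in cKO and 574, 466 and 544 CPM in Ctrl, also with the lowest value in Ctrl replicate 2. The log2 fold change of Col1a1 was 0.10 (95% interval -0.09 to 0.30, edgeR adjusted p 0.769). Without the libraries numbered 1, Col1a1 had 0.15 and was called higher with the block (edgeR adjusted p 0.0339).

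Col2a1 and Col11a2, chains of the fibrils best known from cartilage, were called higher with the block. Col2a1, the chain of type II collagen (chromosome 15, 97975602 to 98004724, GRCm38), had 122, 123 and 131 CPM in cKO replicates 1, 2 and 3, against 107, 116 and 105 CPM in Ctrl replicates 1, 2 and 3. The groups did not overlap, with means of 125 ± 5.15 CPM in cKO and 109 ± 5.67 CPM in Ctrl (SD, n = 3 each). The log2 fold change of 0.20 (95% interval 0.05 to 0.35) had an edgeR adjusted p of 0.302 without the block and 0.0499 with it, just under the threshold. With the block and DESeq2 size factors the call of Col2a1 was lost.

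Col11a2, a chain of type XI collagen, which nucleates type II fibrils (chromosome 17, 34038919 to 34066684), had 16.1, 21.0 and 25.7 CPM in cKO replicates 1, 2 and 3, against 11.4, 18.2 and 17.0 CPM in Ctrl replicates 1, 2 and 3. The groups overlap, since cKO replicate 1 lay below Ctrl replicates 2 and 3, but each cKO library was above the Ctrl library of its number. Its log2 fold change of 0.43 (95% interval 0.01 to 0.85) was the highest of any member tested, with an edgeR adjusted p of 0.451 without the block and 0.0111 with it. Its partner Col11a1 had a log2 fold change of 0.03 (95% interval -0.15 to 0.20). The blocked call of Col11a2 was lost without the libraries numbered 3, and that of Col2a1 without the libraries numbered 2 or those numbered 3.

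Most cartilage markers were too low to test, and none was called. Of 9 cartilage genes found in the table, 6 were too low to test, among them Acan, the aggrecan of cartilage matrix, with 4, 7 and 6 counts in cKO and 4, 2 and 1 in Ctrl. Matn1, a cartilage matrilin, had 1 count over all 6 libraries, and Epyc and Ucma had 2 and 1. The 3 tested had log2 fold changes from -0.37 (Hapln1) to 0.13, and 2 of them were positive. Hapln1 was lower in cKO in numbers 2 and 3, and had 46 counts in each library of number 1. The list summed to 39.0 to 49.1 CPM in cKO and 40.6 to 42.9 CPM in Ctrl, mostly from Cnmd, which encodes chondromodulin.

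The remaining fibrillar chains were not called in either fit. Col5a1 and Col5a2, which set the width of type I fibrils, had log2 fold changes of 0.07 and 0.08. Both were higher in cKO within every replicate number, as were 19.6% of all genes. Some of these differences were very small. Col5a2 had 139.2 CPM in cKO replicate 2 and 138.8 CPM in Ctrl replicate 2. Col5a1 had 204.6 CPM in cKO replicate 3 and 203.3 CPM in Ctrl replicate 3. Col27a1, a minor fibrillar chain, had 0.14 and Col5a3 0.02. Col24a1, another minor chain, had 2.31, 3.74 and 3.50 CPM in cKO and 2.09, 4.82 and 3.98 CPM in Ctrl, with wide overlap. Its log2 fold change of -0.19 (95% interval -0.80 to 0.43) was the second lowest of the members tested (edgeR adjusted p 0.878). The median over the 11 fibrillar chains was 0.08.

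Among basement membrane collagens, Col18a1 and Col4a2 were called higher with the block. Col18a1 encodes type XVIII collagen, a collagen with heparan sulfate chains whose cleaved end is endostatin (chromosome 10, 77052178 to 77166530). It had 277, 269 and 277 CPM in cKO replicates 1, 2 and 3, against 234, 225 and 210.3 CPM in Ctrl replicates 1, 2 and 3. Every cKO library lay above every Ctrl library, with means of 274 ± 4.79 CPM in cKO and 223 ± 12.0 CPM in Ctrl (SD, n = 3 each). The log2 fold change of 0.30 (95% interval 0.15 to 0.45), or 1.23-fold, had an edgeR adjusted p of 0.0935 without the block and 0.00201 with it. It was called in all 6 fits with the block and by DESeq2 without it (adjusted p 0.0105), and its adjusted p over the 23 alternatives ranged from 1.11e-07 to 0.88. The lowest came from the blocked edgeR fit without both libraries numbered 1, which had few libraries from which to measure spread. Col15a1, the closest relative of Col18a1, had a log2 fold change of 0.00 (95% interval -0.15 to 0.15) and was not called (edgeR adjusted p 0.998).

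Col18a1 has a pair of start sites in the RefSeq promoter table, and counts per gene do not separate transcripts from them. The 250 bases before each start are shown because Col18a1 had the smallest adjusted p of the members, with those before Col16a1 and Col11a2, the other members with a promoter entry that lie outside the type IV gene pair and were called with the block. They are written 5′ to 3′ on the strand of the gene in GRCm38.p6, in lower case, with capitals for the CCAAT box (CCAAT, or ATTGG on the other strand) and the GC box (GGGCGG, or CCGCCC on the other strand). The first Col18a1 window is chr10:77166531-77166780, minus strand, and the second chr10:77113706-77113955, minus strand. The Col16a1 window is chr4:130047590-130047839, plus strand, and that of Col11a2 chr17:34038888-34039137, plus strand.
Col18a1, upstream start: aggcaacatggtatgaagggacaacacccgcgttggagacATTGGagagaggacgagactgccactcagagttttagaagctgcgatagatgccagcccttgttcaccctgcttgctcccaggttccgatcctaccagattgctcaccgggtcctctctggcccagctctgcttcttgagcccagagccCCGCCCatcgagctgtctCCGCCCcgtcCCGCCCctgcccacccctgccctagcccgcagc
Col18a1, downstream start: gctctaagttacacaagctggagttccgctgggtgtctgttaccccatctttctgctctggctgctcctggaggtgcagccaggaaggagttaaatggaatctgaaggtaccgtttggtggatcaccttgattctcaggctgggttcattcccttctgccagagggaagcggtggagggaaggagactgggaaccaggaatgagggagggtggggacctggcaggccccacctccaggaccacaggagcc
Col16a1: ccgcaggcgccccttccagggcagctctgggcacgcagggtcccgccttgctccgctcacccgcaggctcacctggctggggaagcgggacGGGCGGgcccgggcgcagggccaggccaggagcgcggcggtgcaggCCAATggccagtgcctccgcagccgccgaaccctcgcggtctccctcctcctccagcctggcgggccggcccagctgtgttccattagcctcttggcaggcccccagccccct
Col11a2: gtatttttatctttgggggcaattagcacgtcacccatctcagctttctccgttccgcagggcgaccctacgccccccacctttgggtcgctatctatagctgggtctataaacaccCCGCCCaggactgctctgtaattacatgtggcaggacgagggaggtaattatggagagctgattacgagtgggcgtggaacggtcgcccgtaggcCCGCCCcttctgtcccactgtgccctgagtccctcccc

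The windows differ in these motifs. The upstream Col18a1 window holds 1 CCAAT box, which begins 210 bases before the start, and 3 GC boxes within 61 bases of it, while the downstream window holds neither. Col16a1 has 1 of each, and Col11a2 has 2 GC boxes and no CCAAT box. RefSeq promoter entries were found for 40 of the 55 members, as 44 windows. A CCAAT box stood in 31.8% of these windows and in 33.8% of all 32851 windows of this length, and a GC box in 54.5% and 32.7%. A match is a sequence feature and was not tested as a binding site.

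Of the main chains of type IV collagen, the net of all basement membranes, Col4a2 was called higher with the block and Col4a1 was not. Col4a2 (chromosome 8, 11312805 to 11449287) had 606, 643 and 647 CPM in cKO replicates 1, 2 and 3, against 548, 548 and 533 CPM in Ctrl replicates 1, 2 and 3. All cKO libraries exceeded all Ctrl libraries, and the means were 632 ± 22.7 CPM in cKO and 543 ± 8.63 CPM in Ctrl (SD, n = 3 each). The log2 fold change of 0.22 (95% interval 0.06 to 0.37) had an edgeR adjusted p of 0.254 without the block and 0.0096 with it, and the blocked call was lost without the libraries numbered 2. Col4a1 (chromosome 8, 11198423 to 11312889), its partner in the same trimers, had 934, 1036 and 970.4 CPM in cKO replicates 1, 2 and 3, against 945, 1017 and 896 CPM in Ctrl replicates 1, 2 and 3. These groups overlap throughout, and the log2 fold change of 0.04 (95% interval -0.13 to 0.22) did not pass in either fit (edgeR adjusted p 0.91, and 0.654 with the block).

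The ratio of Col4a2 to Col4a1, in TPM within a library, was 0.666, 0.637 and 0.684 in cKO replicates 1, 2 and 3, against 0.596, 0.553 and 0.611 in Ctrl replicates 1, 2 and 3. Ratios of the cKO libraries were all above those of the Ctrl libraries, at 0.663 ± 0.0236 in cKO and 0.587 ± 0.0299 in Ctrl (SD, n = 3 each). An exact two-sided permutation test over libraries gave p = 0.10, the smallest that 3 against 3 allows, and 0.60 after Benjamini-Hochberg adjustment over the 6 chain pairs compared, which were chosen after the values were seen. The other 5 ratios overlapped between the groups. Col1a1 over Col1a2 was 0.743 ± 0.0258 in cKO and 0.733 ± 0.0288 in Ctrl (exact permutation p = 0.70, n = 3 each).

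Col4a1 and Col4a2 lie head to head on chromosome 8, and the base pairs that hold both starts are shown because these genes begin at the same place. In the RefSeq promoter table of GRCm38.p6 the start of Col4a1, read on the minus strand, is 21 bases to the right of that of Col4a2, read on the plus strand. The 30 bases of the plus strand at chr8:11312801-11312830 follow, with the 22 bases from the Col4a2 start to the Col4a1 start in capitals.
Col4a1 and Col4a2 starts: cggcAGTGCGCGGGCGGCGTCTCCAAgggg
By their gene coordinates, Col4a1 is annotated up to position 11312889 and Col4a2 from position 11312805, a longer overlap than the 22 bases in capitals. Where the genes overlap, reads without strand cannot be assigned to either. The part of such reads in the counts of these genes was not tested.

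The other type IV chains were far lower and gave no call. Col4a5 averaged 7.37 TPM and Col4a6, its head-to-head neighbour on the X chromosome, 1.16 TPM, with log2 fold changes of -0.02 and -0.09. Col4a3 and Col4a4, the chains known from kidney glomeruli, averaged 0.682 and 0.713 TPM. Col4a3 had 2.36, 3.33 and 3.27 CPM in cKO and 2.62, 3.87 and 3.68 CPM in Ctrl, and its log2 fold change of -0.18 (95% interval -0.64 to 0.28) was the third lowest of the members tested (edgeR adjusted p 0.84). The median over the 8 basement membrane collagens was -0.01, with 4 of 8 positive.

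**Figure D3:**
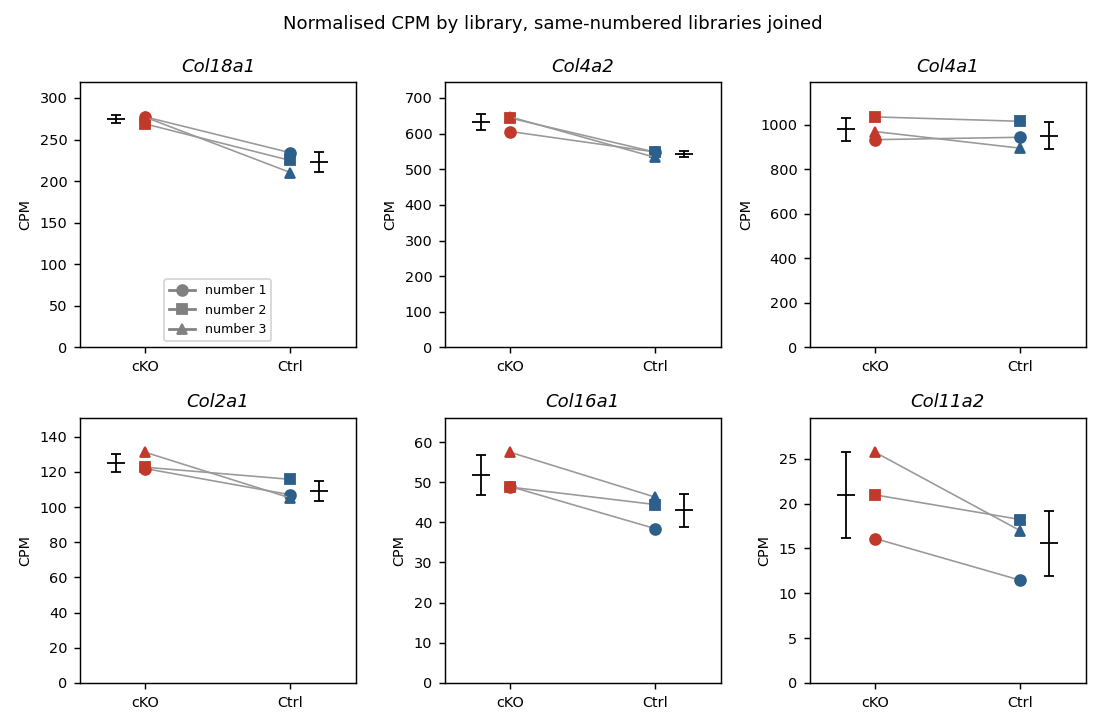
Normalised CPM in each library, cKO left and Ctrl right, for the 5 members called with the replicate number as a block and for Col4a1, the partner of Col4a2; lines join libraries of the same number, and bars beside the points show the mean and SD of each group (n = 3). All lines fall toward Ctrl for the 5 called genes, while for Col4a1 the line of number 1 rises toward Ctrl.

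FACIT collagens, which coat the surface of fibrils, had a median log2 fold change of 0.17 over 9 genes, with 7 of 9 positive. Col16a1 (chromosome 4, 130047817 to 130099277), a member of this class, had 48.9, 48.8 and 57.4 CPM in cKO replicates 1, 2 and 3, against 38.4, 44.4 and 46.3 CPM in Ctrl replicates 1, 2 and 3. The groups did not overlap, although cKO replicate 2 and Ctrl replicate 3 lay close, and the means were 51.7 ± 4.97 CPM in cKO and 43.0 ± 4.10 CPM in Ctrl (SD, n = 3 each). The log2 fold change of 0.27 (95% interval 0.06 to 0.47) had an edgeR adjusted p of 0.295 without the block and 0.0207 with it, and was called in all 6 fits with the block. Without the block it was not called in any alternative (edgeR adjusted p up to 0.91).

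Col14a1, the most abundant FACIT chain, had 149, 161 and 139 CPM in cKO and 124, 130.1 and 146 CPM in Ctrl. It was higher in cKO in replicate numbers 1 and 2 and not in 3, with a log2 fold change of 0.17 (95% interval -0.01 to 0.35) and an edgeR adjusted p of 0.514. Without the libraries numbered 3, Col14a1 had a log2 fold change of 0.29 and was called higher with the block (edgeR adjusted p 0.00209). That fit left out the pair in which cKO was below Ctrl, and it had few libraries from which to measure spread. Col22a1, known from tissue junctions such as those of muscle and tendon, had 96.1, 106 and 111 CPM in cKO and 99.0, 113 and 114 CPM in Ctrl, each cKO library below its Ctrl library by little (log2 fold change -0.06, SE 0.08, edgeR adjusted p 0.858). Col20a1 had 11.0, 11.1 and 12.8 CPM in cKO and 7.79, 11.2 and 8.82 CPM in Ctrl, where Ctrl replicate 2 reached into the range of cKO. Its log2 fold change of 0.32 (95% interval 0.02 to 0.63) was the second highest of the members tested (edgeR adjusted p 0.425, and 0.134 with the block). The type IX chains Col9a1, Col9a2 and Col9a3, which sit on type II fibrils, had log2 fold changes of 0.20, 0.08 and 0.17, none called. Col19a1 had 0.11 and Col12a1 -0.09.

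Type VI collagen, which forms beaded filaments around cells, was not called. Col6a1 had 97.4, 90.9 and 88.4 CPM in cKO and 85.0, 81.9 and 84.3 CPM in Ctrl, with every cKO library above every Ctrl library. The log2 fold change of 0.14 (95% interval -0.00 to 0.28) did not pass (edgeR adjusted p 0.487, and 0.152 with the block). Col6a2 had 117, 116 and 107 CPM in cKO and 107, 99.7 and 109 CPM in Ctrl, with overlap at cKO replicate 3, and Col6a3 had a log2 fold change of 0.02. Col6a6 averaged 0.667 TPM and had -0.04. Col6a4 and Col6a5 had 0 to 7 counts in each library and were not tested.

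Among the other collagens Col26a1 was the most abundant at 116 TPM, with 181, 175 and 163 CPM in cKO and 167, 154 and 154 CPM in Ctrl. Each cKO library exceeded the Ctrl library of its number, and the log2 fold change of 0.13 (95% interval -0.03 to 0.28) did not pass (edgeR adjusted p 0.591, and 0.169 with the block). Col28a1, known in mouse as a collagen of peripheral nerve glia, had 107, 127 and 106 CPM in cKO and 86.4, 112 and 112 CPM in Ctrl, lowest in Ctrl replicate 1 and highest in cKO replicate 2. Its log2 fold change was 0.13 (SE 0.11, edgeR adjusted p 0.736). Without the libraries numbered 3, Col28a1 had 0.25 and was called higher with the block (edgeR adjusted p 0.0122). In the pair left out by that fit, cKO was below Ctrl. The membrane-spanning Col13a1, Col23a1 and Col25a1 had 0.03, -0.01 and -0.17, and the net-forming Col8a1 and Col8a2 had -0.06 and -0.04. Col7a1, the anchoring fibril chain of skin, averaged 0.635 TPM with a log2 fold change of 0.08. Col10a1, of hypertrophic cartilage, and Col17a1, of epidermal hemidesmosomes, had 0 to 5 counts in each library and were not tested. The median over the 8 tested genes of this group was 0.01.

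The main laminin chains held similar shares in all 6 libraries, and no laminin was called in either fit. Lama4, the alpha chain known from vessel walls and peripheral nerve, made up 77.2% to 79.8% of alpha chain TPM, and Lama2, the main alpha chain of the Schwann cell basement membrane, 14.8% to 17.4%. Lamb1 held 79.0% to 80.7% of beta chain TPM and Lamb2 19.1% to 20.9%. Lamc1, the gamma chain of most laminins, held 93.3% to 95.3% of gamma chain TPM. These shares cover the lowest and the highest of the 6 libraries.

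Lama4 had 290.3, 312 and 298 CPM in cKO and 303, 318 and 338 CPM in Ctrl. Each cKO library was below its Ctrl library, but cKO replicate 2 exceeded Ctrl replicate 1, and the log2 fold change of -0.09 (95% interval -0.25 to 0.07) did not pass (edgeR adjusted p 0.739, and 0.323 with the block). Lama2 had 106, 116 and 99.1 CPM in cKO and 92.5, 106 and 115 CPM in Ctrl, higher in cKO in numbers 1 and 2 and lower in number 3 (log2 fold change 0.04, SE 0.09). Lama1, the alpha chain of early embryonic basement membranes, had -0.06. Lama5 had 0.20 and was not called.

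Lamb1 had 338, 348 and 346 CPM in cKO and 337, 351 and 368 CPM in Ctrl, with a log2 fold change of -0.03 (95% interval -0.18 to 0.12). Lamc1 had 341, 362 and 345 CPM in cKO and 361, 367 and 363 CPM in Ctrl, where cKO replicate 2 alone reached into the narrow Ctrl range. Its log2 fold change of -0.06 (95% interval -0.21 to 0.09) did not pass (edgeR adjusted p 0.84). Lamb2, the beta chain of nerve and muscle basement membranes, had 81.6, 83.0 and 89.0 CPM in cKO and 77.5, 82.9 and 84.9 CPM in Ctrl and a log2 fold change of 0.05. Lamc3 had 24.5, 18.9 and 22.5 CPM in cKO and 19.8, 17.7 and 23.4 CPM in Ctrl, with overlap (log2 fold change 0.11, edgeR adjusted p 0.824).

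Lama3 and Lamb3, chains of epithelial laminin, were low. Lama3 had 3.17, 3.45 and 2.16 CPM in cKO and 2.91, 3.87 and 3.43 CPM in Ctrl, and its log2 fold change of -0.22 (95% interval -0.67 to 0.24) was the lowest of the members tested (edgeR adjusted p 0.797). Lamb3 had 1, 7 and 6 counts in cKO replicates 1, 2 and 3, against 19, 17 and 9 counts in Ctrl replicates 1, 2 and 3. Every cKO library was below every Ctrl library, but the gene was too low for the filter, and with no filter its log2 fold change of -1.70 had an edgeR adjusted p of 0.170. Without the libraries numbered 3, Lamb3 passed the filter and was called lower with the block (log2 fold change -2.17, edgeR adjusted p 0.0201). The pair left out by that fit had the smallest difference in counts. Epidermal markers were near 0, with 5 genes summing to 0.292 to 0.634 CPM in cKO and 0.306 to 0.581 CPM in Ctrl.

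**Figure D4:**
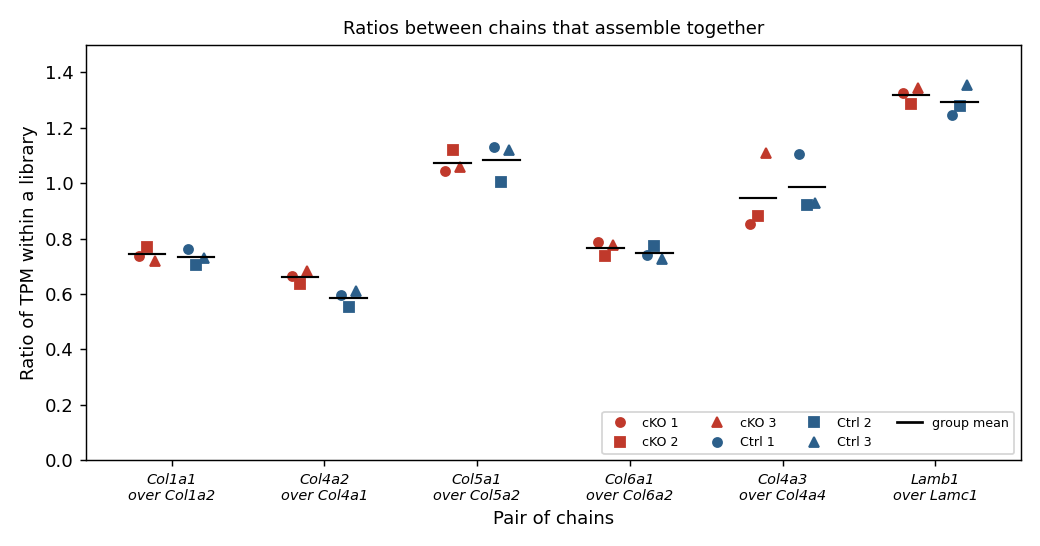
Ratio of TPM between 6 pairs of chains that assemble together, in each library (red for cKO, left of blue for Ctrl; symbol shapes for replicate numbers; black lines for group means). The ratio of Col4a2 over Col4a1 is 0.637 to 0.684 in cKO and 0.553 to 0.611 in Ctrl without overlap, and the ratios of the other 5 pairs overlap.

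Genes that process, bind or degrade these proteins gave few calls. None of 33 collagen processing genes was called in either fit (median log2 fold change 0.02). Serpinh1, the collagen chaperone of the endoplasmic reticulum, had 507, 425 and 414 CPM in cKO and 466, 417 and 447 CPM in Ctrl, and Ppib, a prolyl isomerase for collagen folding, had 190.0, 167 and 162 CPM in cKO and 189, 179.8 and 189 CPM in Ctrl. P3h1, a collagen prolyl hydroxylase gene that lies close to Ybx1, had a log2 fold change of -0.26 (95% interval -0.47 to -0.05) and was not called (edgeR adjusted p 0.342, and 0.0987 with the block). It was named for its position. Of 17 basement membrane partners none was called without the block (median 0.00), and Frem2, a protein of embryonic epithelial basement membranes, was called lower with it (log2 fold change -0.30, blocked edgeR adjusted p 0.00778), with 42.9, 44.2 and 43.7 CPM in cKO and 50.3, 54.5 and 55.6 CPM in Ctrl.

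Of 16 collagen and laminin receptor genes none was called without the block (median 0.02), and 3 were called with it. Itgb4, the integrin beta chain of hemidesmosomes and perineurial cells, was higher at 13.3, 15.4 and 12.2 CPM in cKO and 11.1, 11.0 and 9.62 CPM in Ctrl (blocked edgeR adjusted p 0.0427). Itga7, a laminin receptor chain, was higher at 110.0, 131 and 136 CPM in cKO and 104, 111 and 106 CPM in Ctrl (blocked edgeR adjusted p 0.0291), with cKO replicate 1 inside the Ctrl range. Itga3, another laminin receptor chain, was lower at 32.7, 40.2 and 39.0 CPM in cKO and 46.7, 47.5 and 43.3 CPM in Ctrl (blocked edgeR adjusted p 0.0228). Among 15 tested matrix proteases and inhibitors (median 0.07) only Mmp24, a membrane-bound metalloproteinase of neurons, was called, in both fits. It was lower, at 81.4, 99.5 and 101 CPM in cKO and 127, 133 and 126 CPM in Ctrl, a log2 fold change of -0.45 (95% interval -0.64 to -0.27) with an edgeR adjusted p of 0.0449, and 0.000563 with the block.

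Connective tissue, endothelial and mural cell markers gave no calls, while some glial and macrophage markers were called higher in cKO. Of 11 tested mesenchyme and fibroblast markers none was called in either fit (median log2 fold change -0.06), and their sums overlapped at 645 to 751 CPM in cKO and 646 to 720 CPM in Ctrl. The 10 endothelial markers (median -0.02, 3 positive, none called) summed to 410 to 465 CPM in cKO and 436 to 447 CPM in Ctrl. All 8 mural cell markers were negative (median -0.06), and none was called. Their sums overlapped at 223 to 236 CPM in cKO and 232 to 245 CPM in Ctrl. Of 9 markers of Schwann cells and satellite glia 8 were positive (median 0.19). None was called without the block and 5 were called higher with it. The other marker was negative (log2 fold change -0.13), with every cKO library below every Ctrl library. Summed, the 9 markers had 2002.5 to 2053 CPM in cKO and 1901 to 2015 CPM in Ctrl. Of all genes tested, 51.4% were positive, and with the block 1.76% were called higher and 3.56% lower. The 8 macrophage markers were all positive (median 0.44), with Mpeg1 called higher in both fits and C1qb with the block, and summed to 99.3 to 147 CPM in cKO, highest in replicate 1, and 78.7 to 89.3 CPM in Ctrl. Of 8 sensory neuron markers (median -0.07) none was called without the block and 3 were called lower with it, and they summed to 8737 to 8920.5 CPM in cKO and 8797 to 9472.5 CPM in Ctrl. Skeletal muscle markers (6 tested, none called) summed to 8.40 to 13.4 CPM in cKO and 8.99 to 12.5 CPM in Ctrl. The part of glial, macrophage and neuron markers in the collagen values was not tested.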

How the data were processed

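RNA-seq of dorsal root ganglia from 3 cKO and 3 Ctrl embryos was analysed from the authors' deposited table. It gives RSEM estimated counts per gene, and the authors' TPM and FPKM values beside them. The submitters' processing notes name a GRCm38 (mm10) genome and, among tools, RSEM 1.3.1, Bowtie2 2.4.5 and HISAT2 2.2.1. Whether the kit keeps strand is not stated in the labels, so genes that overlap on opposite strands may share reads. The deposited estimated counts were rounded to whole numbers, filtered with filterByExpr (3633 of 17971 genes removed) and scaled by TMM with edgeR 4.0.16 in R 4.3.3. Levels were compared between genes in the deposited TPM, and the deposited FPKM were used only for their library sums, which were 590156 and 614728 in the libraries numbered 1 and 548068 to 551964 in the other 4. Each group's 3 libraries are biological replicates in the labels, and p-values of the fit without the block measure the spread between them. Those of the blocked fit measure the spread of the differences between cKO and Ctrl across replicate numbers.

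The quasi-likelihood test ran over all genes tested without the replicate number, and again with it as a block. Deviations from the group means correlated at 0.383, 0.220 and 0.189 between the same-numbered libraries of cKO and Ctrl, so the numbers were taken as pairs. Alternatives were DESeq2 1.42.0 (test and size factors), limma 3.58.1 (voom, and log2(TPM + 1) or log2(TPM + 0.1)), library totals, other filters, and leaving out libraries. A blocked fit without both libraries of a number has few libraries left from which to measure the spread of a gene, so its calls are weakly based.

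Library values are given for members called in either fit, for the 2 with the highest TPM of each class, for non-overlapping members with a log2 fold change of at least 0.3 in size, and for the 3 highest and 3 lowest log2 fold changes; of the pathway lists, the called genes or else the 2 with the highest TPM. The members and lists were chosen with earlier results of these data known. Promoter windows and coordinates are RefSeq's for GRCm38.p6. Of the members counted, 1 is not reported here by itself.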

Additional observations from a re-analysis of the deposited data

How the results depend on the processing

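The count of members called depended on the test and the pairing by replicate number. It was 0 without the block and 5 with it, 5 with the block and library totals, 4 with the block and DESeq2 size factors, and 1 by DESeq2's test, and all these were higher in cKO. When libraries were left out it ranged from 0 to 6, with 0 to 6 higher and 0 to 1 lower (Lamb3, with the block and without the libraries numbered 3). The share of all genes called in those fits is not given here, so these counts were not compared with a background. On all 6 libraries with TMM scaling, the replicate block changed no call of a member beyond those 5. With fewer libraries the block also called Col1a1 (0.15) without those numbered 1, and Col14a1 (0.29) and Col28a1 (0.25) without those numbered 3, which the fits without it on the same libraries did not. The members' summed TPM differed by 0.09 between the group means on the log2 scale, and by 0.0526 to 0.145 when single libraries were left out (0.145 without cKO replicate 1). The medians of the members, the fibrillar collagens, the basement membrane collagens and the laminins stayed within their spread under the 23 alternatives. So did that of the beaded filament, FACIT and other collagens pooled, which were not followed as separate classes. The median over members was 0.01 to 0.10 when libraries were left out. Of 552 values of named members under alternatives, 14 changed sign, all near 0 and none called. Col3a1 gave -0.0011 without cKO replicate 1, -0.0692 without Ctrl replicate 2, and -0.0593 (no block) and -0.0594 (block) without both libraries numbered 2; Col4a1 gave -0.0013 without cKO replicate 2 and -0.00086 without Ctrl replicate 3. Lama2 gave -0.0263 without cKO replicate 2, -0.0448 without Ctrl replicate 1, -0.0382 and -0.0403 without both libraries numbered 1, and -0.0177 and -0.0115 without both numbered 2. Col24a1 gave 0.0701 without Ctrl replicate 2 and Lamb1 0.00016 without Ctrl replicate 3. When libraries were left out these spanned -0.0692 to 0.0958 for Col3a1, -0.00129 to 0.0883 for Col4a1, -0.0448 to 0.165 for Lama2, -0.47 to 0.0701 for Col24a1 and -0.0629 to 0.000158 for Lamb1. The cause was not tested. With 3 libraries a group, the median 95% interval of 0.20 to either side limits which small differences could be called.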
